A study of Mus musculus with 6 samples.

Results

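Igfbp5, Ghr, Fgf1 and Fgf7 are 4 genes of the growth hormone, insulin-like growth factor (IGF) and fibroblast growth factor (FGF) axis. They were followed here in adipose stromal cells (ASCs), fat-resident progenitors that resemble fibroblasts, from perigonadal and subcutaneous fat of male mice. They were chosen by their values in these samples, as symbols in the authors' deposited table of probe sets that differed between the depots, and are 4 of the 3181 genes that had a name on the array. Each had 1 probe set (a group of probes read as one transcript) in that deposited table. Probe sets outside it have no name here, so further ones of these genes cannot be seen.

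The perigonadal group was ASCs of the fat beside the gonads and the subcutaneous group was ASCs of the fat under the skin. Each depot had 3 independent pools of cells with 1 Affymetrix array per pool. In both groups the cells were used without culture and had been sorted magnetically as negative for CD45 (a leukocyte marker) and CD31 (an endothelial marker) and positive for Sca1 (a stem and progenitor cell marker). The labels give 6 animals without saying whether that is per pool or in all, and give no strain, age or treatment. Whether equally numbered pools of the depots share their animals is not stated either. All p-values therefore rest on the variation among these pools only.

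Growth hormone acts through the growth hormone receptor, which signals by the kinase JAK2 and the transcription factor STAT5 and induces IGF1 in liver and in many other tissues, fat included. IGF1 acts through its own receptor, and a family of IGF binding proteins holds it in the extracellular space and controls how much of it is free. FGFs are ligands of tyrosine kinase receptors that signal through ERK. Most of them bind heparan sulfate, the sugar chain of cell-surface and matrix proteoglycans, which also serves as a co-receptor. In fat, stromal cells are a source of IGF1, of binding proteins and of FGFs, and FGF1 takes part in the remodelling of fat.

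Igfbp5, Ghr and Fgf7 were all lower in perigonadal than in subcutaneous ASCs. The sequences before their annotated starts are shown so that the promoters of 3 genes with the same direction can be read side by side. They are 250 bases long, from RefSeq (GRCm38.p6), 5′ to 3′ on the gene's strand, ending at the base before the start. Igfbp5 lies at chr1:72874866-72875115 (minus strand), Ghr at chr15:3583353-3583602 (minus strand) and Fgf7 at chr2:126034408-126034657 (plus strand). Capitals mark matches, on either strand, to the TATA box TATAAA, the box named for its letters CCAAT, the GC box GGGCGG, the E-box CACGTG or the STAT element TTCNNNGAA.
Igfbp5: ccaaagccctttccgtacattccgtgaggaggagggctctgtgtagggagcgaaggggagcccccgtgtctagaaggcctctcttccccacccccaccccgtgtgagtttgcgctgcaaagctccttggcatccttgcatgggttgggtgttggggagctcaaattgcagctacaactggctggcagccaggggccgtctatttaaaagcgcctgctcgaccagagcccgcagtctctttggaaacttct
Ghr: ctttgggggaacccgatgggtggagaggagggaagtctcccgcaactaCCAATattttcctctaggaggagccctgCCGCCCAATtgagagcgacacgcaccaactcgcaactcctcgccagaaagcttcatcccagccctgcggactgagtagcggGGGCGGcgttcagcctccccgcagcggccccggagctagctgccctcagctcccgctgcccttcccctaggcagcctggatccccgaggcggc
Fgf7: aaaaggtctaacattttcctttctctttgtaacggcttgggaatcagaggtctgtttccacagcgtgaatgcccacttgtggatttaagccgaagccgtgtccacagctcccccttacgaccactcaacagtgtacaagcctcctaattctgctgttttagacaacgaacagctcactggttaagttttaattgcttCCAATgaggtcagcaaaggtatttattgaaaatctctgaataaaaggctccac

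The Igfbp5 window held none of the 5 motifs. The Ghr window held CCAAT at 202 and 170 bases before the start and GGGCGG at 93 bases, with its reverse complement at 174 bases, where it overlaps the second CCAAT. A second annotated start of Ghr had TATAAA and CCAAT matches on the other strand, at 188 and 56 bases before it. The Fgf7 window held CCAAT at 53 bases before the start. Over all 32851 promoters of the table, 33.8% held CCAAT, 32.7% held GGGCGG, 12.4% held TATAAA, 7.02% held TTCNNNGAA and 6.02% held CACGTG in such a window. The share of G and C was 58.8% for Igfbp5, 65.6% for Ghr and 43.6% for Fgf7, against a median of 52.4% over the table. No motif of the 5 was found in all 3 windows, and their base composition differed.

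The values are the authors' normalized intensities on a linear scale. A log2 difference is the perigonadal minus the subcutaneous value of log2(intensity + 1). Dim probe sets change less on this scale than in intensity. The authors had kept the probe sets with an unadjusted p-value below 0.05 in a paired test of these 6 arrays, so the depot difference of the 4 genes is what chose them and is given as a description with no test. In the authors' deposited table their p-values were 0.000818 for Igfbp5, 0.00656 for Ghr, 0.00899 for Fgf7 and 0.0124 for Fgf1. Nearest to the threshold among the other axis genes in the authors' deposited table was Ptpn2, at 0.0416. Genes beyond it have no name here. None of the 4 genes had overlapping depots, which also held for 25.1% of all probe sets and 80.4% of named genes.

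Igfbp5 encodes an IGF binding protein that also binds matrix. Its intensity (chromosome 1, band C3) was 41.3, 57.9 and 47.7 in perigonadal pools 1 to 3, against 547, 600.1 and 562 in subcutaneous pools 1 to 3. Every perigonadal pool was far below every subcutaneous pool. The means were 49.0 ± 8.35 in perigonadal and 570 ± 27.3 in subcutaneous pools (SD, n = 3 each), 11.6-fold higher in subcutaneous pools. The log2 difference was -3.53 ± 0.17 (SD over 3 pool pairs), and only 6 of the 23531 probe sets, Igfbp5 included, were as low or lower.

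Ghr encodes the growth hormone receptor. Its intensity (chromosome 15, band A1) was 78.0, 68.5 and 75.0 in perigonadal pools 1 to 3 and 129, 133 and 130.3 in subcutaneous pools 1 to 3. The subcutaneous pools lay close together and all were above the perigonadal ones. The means were 73.8 ± 4.84 in perigonadal and 131 ± 1.86 in subcutaneous pools (SD, n = 3 each), 1.77-fold higher in subcutaneous pools. The log2 difference was -0.82 ± 0.11 (SD over 3 pairs).

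Fgf7, also called keratinocyte growth factor, is made by mesenchymal cells and acts on epithelial cells that carry an isoform of the receptor FGFR2. Its intensity (chromosome 2) was 145, 124 and 166 in perigonadal pools 1 to 3 and 272, 269.5 and 291 in subcutaneous pools 1 to 3. The highest perigonadal pool was below the lowest subcutaneous pool. The means were 145 ± 20.8 in perigonadal and 278 ± 12.0 in subcutaneous pools (SD, n = 3 each), 1.92-fold higher in subcutaneous pools. The log2 difference was -0.94 ± 0.16 (SD over 3 pairs).

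Fgf1 encodes the acidic fibroblast growth factor, which can bind all the FGF receptors, and it was the one gene of the 4 that was higher in perigonadal ASCs. Its intensity (chromosome 18, band B3) was 11.5, 14.3 and 12.2 in perigonadal pools 1 to 3 and 6.15, 5.69 and 5.72 in subcutaneous pools 1 to 3. The depots did not overlap, but the subcutaneous values were below the medians of their arrays, which were 6.92, 6.54 and 6.44. The means were 12.6 ± 1.47 in perigonadal and 5.85 ± 0.257 in subcutaneous pools (SD, n = 3 each), 2.16-fold higher in perigonadal pools. The log2 difference was 0.99 ± 0.20 (SD over 3 pairs), and it was 0.39 with a pseudocount of 16 and 1.10 without one, so its size depends on that choice.

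**Figure D1:**
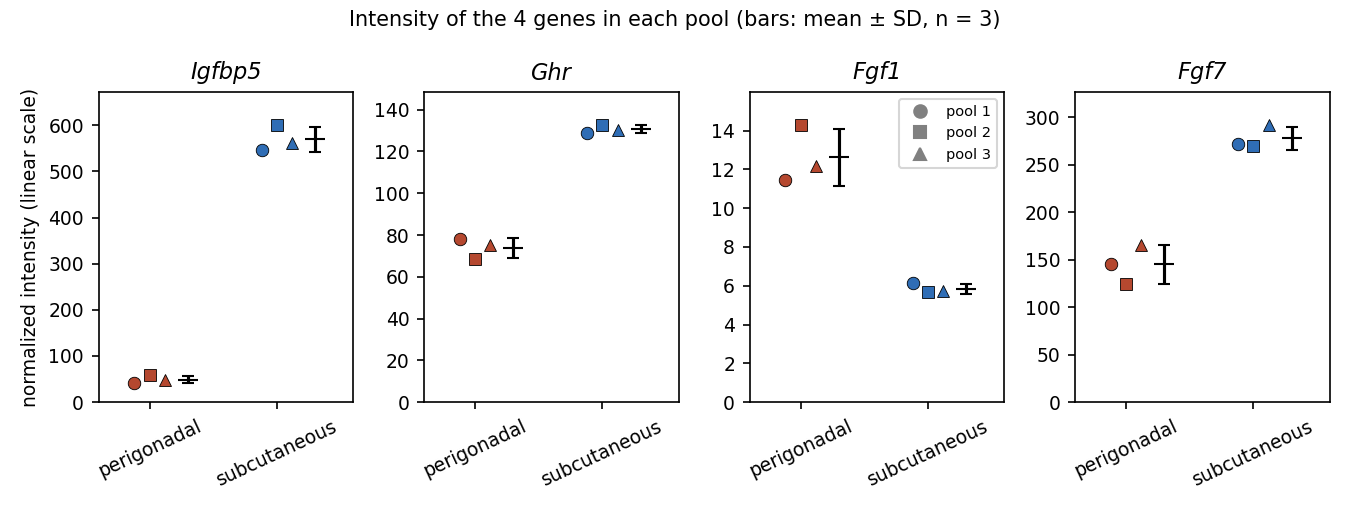
Normalized intensity (vertical axis, linear, from 0) of each of the 4 genes in each pool, perigonadal on the left and subcutaneous on the right of each panel, with the mean and SD of the 3 pools beside the points. The perigonadal points of Igfbp5 (41.3 to 57.9) sit close to 0 against 547 to 600.1 in subcutaneous pools, those of Ghr and Fgf7 are lower by less, and those of Fgf1 (11.5 to 14.3) are above the subcutaneous ones (5.69 to 6.15).

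Among the perigonadal pools, pool 2 held the highest or the lowest value for all 4 genes. Most of 3 values are such an extreme, and how often pool 2 was one over all probe sets was not counted. For Fgf7, pool 3 (166) lay about as far above the mean of 145 as pool 2 (124) lay below it. Pool 2 had the highest Igfbp5 and Fgf1 and the lowest Ghr and Fgf7. For Ghr, Fgf7 and Fgf1 its pair therefore gave the largest log2 difference, at -0.94, -1.11 and 1.19, while for Igfbp5 it gave the smallest in size, at -3.35. The coefficient of variation of the 3 pools was larger in perigonadal than in subcutaneous fat for each gene, at 17.0% and 4.79% for Igfbp5, 6.56% and 1.42% for Ghr, 14.4% and 4.31% for Fgf7 and 11.6% and 4.40% for Fgf1. Over all probe sets the median was 9.98% in perigonadal and 9.07% in subcutaneous pools, and 55.5% had the larger value in perigonadal pools.

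**Figure D2:**
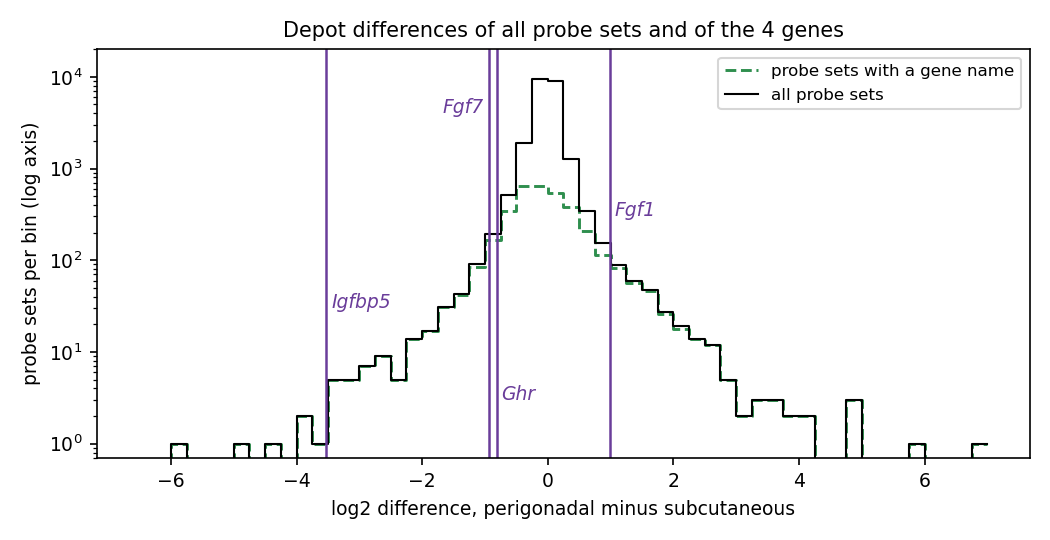
Number of probe sets (vertical axis, log scale) by log2 difference between perigonadal and subcutaneous pools (horizontal axis), for all 23531 probe sets (solid line) and the 3541 with a gene name (dashed line), with the 4 genes as vertical lines. Ghr (-0.82), Fgf7 (-0.94) and Fgf1 (0.99) lie on the shoulders of the distribution and Igfbp5 (-3.53) in its far lower tail.

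The perigonadal and subcutaneous pools also differed in markers of other cells. Names exist only for markers that the authors had picked by their depot difference in the same arrays. The counts of markers that passed are therefore no independent evidence. The limma test described below called 52.3% of all named genes (20.9% higher, 31.4% lower) and 9.51% of all probe sets. Of 14 mesothelial markers (the cell layer that covers visceral fat), 9 had a name. All 9 passed the test as higher in perigonadal pools, with a summed intensity of 329.5 to 368 in perigonadal against 51.0 to 63.9 in subcutaneous pools. The perigonadal sum rested mostly on Wt1 and Rspo1, with perigonadal means of 141 and 96.3 and log2 differences of 4.78 and 2.52. The keratins Krt7 and Krt19 were dim, with perigonadal means of 8.37 and 13.5, and had the smallest log2 differences of the 9, at 0.53 and 0.68. Which cells carried these transcripts was not tested. Of 7 pericyte and smooth muscle markers 3 had a name and were higher, with sums of 52.9 to 76.8 in perigonadal and 21.4 to 33.4 in subcutaneous pools. Both named Schwann cell markers of 6 were lower, at sums of 11.4 to 13.5 in perigonadal and 32.6 to 43.1 in subcutaneous pools. Of 8 leukocyte markers only Itgam had a name, at 2.41 to 2.54 in perigonadal and 2.29 to 2.48 in subcutaneous pools, and of 7 endothelial markers only Tek, at 73.7 to 79.5 in perigonadal and 121 to 139 in subcutaneous pools. No adipocyte marker of 7 had a name. Of the 10 stromal markers 4 had a name, 3 of them lower, with sums of 1108 to 1220 in perigonadal and 1812 to 1935 in subcutaneous pools. Ly6a, which encodes the sort marker Sca1, stood at 435 to 523 in perigonadal and 510 to 620.0 in subcutaneous pools. No marker value was 0, but the lowest intensity of any probe set was 1.28, so this does not show that a marker was detected. The Itgam values were below the medians of all arrays. The part of these cells in the results on the 4 genes and their axis was not tested, and fewer cells of a type cannot be told apart from less RNA per cell in pooled cells.

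The axis around the 4 genes was read from 6 lists with 131 distinct genes. Names exist only for genes that the authors had picked by their depot difference in the same arrays, so the counts are no independent evidence of direction. The test was limma's moderated test over all 23531 probe sets with the pool number as a block, at a Benjamini-Hochberg adjusted p below 0.05. It called 9.51% of all probe sets (4.05% higher, 5.47% lower) and 52.3% of named genes (20.9% higher, 31.4% lower). Leaving out the 4 genes, 38 of 127 list genes had a name, of which 13 rose, 12 fell and 13 missed the threshold, with a median log2 difference of -0.05 beside -0.17 for all named genes and -0.01 for all probe sets.

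In the IGF list, with Igfbp5 left out, 10 of 26 genes had a name, of which 4 were higher, 4 lower and 2 did not pass (median log2 difference -0.33). The ligand itself went opposite to Igfbp5. Igf1 stood at 338, 313 and 330.1 in perigonadal pools 1 to 3 and 189, 196 and 202 in subcutaneous pools 1 to 3, with no overlap between the depots. It was higher by 0.74 ± 0.088 on the log2 scale (SE, limma adjusted p = 0.00209).

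Of the named genes in the IGF list that encode proteases of IGF binding proteins, Pappa and Pappa2 were higher and Htra1 was lower. Pappa, a metalloprotease that cleaves IGFBP4 and IGFBP5, had 14.2, 12.7 and 12.4 in perigonadal pools 1 to 3 against 6.67, 5.63 and 7.11 in subcutaneous pools 1 to 3, a log2 difference of 0.92 ± 0.099 (SE, limma adjusted p = 0.00132). Its relative Pappa2, which cleaves IGFBP3 and IGFBP5, had between 7.10 and 10.2 in perigonadal and between 3.67 and 5.33 in subcutaneous pools. The subcutaneous values of Pappa2 were below the medians of their arrays. The Pappa2 log2 difference was 0.75 (limma adjusted p = 0.0059) and did not pass with a pseudocount of 16 (0.24, limma adjusted p = 0.0505). A second Pappa2 probe set gave 0.79. Htra1, a secreted serine protease picked after its values were seen, had 216, 203 and 234 in perigonadal pools against 339, 305 and 302 in subcutaneous pools, a log2 difference of -0.53 (limma adjusted p = 0.0131). Its call was lost without pool pair 1 (-0.48) or 2 (-0.51). Irs1, the adaptor that links the IGF1 and insulin receptors to PI3 kinase, fell to 37.9, 37.0 and 38.6 in perigonadal pools, against 61.5, 60.1 and 72.3 in subcutaneous pools, a log2 difference of -0.75 ± 0.091 (SE, limma adjusted p = 0.00227).

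The other binding proteins with a name, picked after their values were seen, had smaller differences than Igfbp5. Igfbp4 averaged 378 ± 21.4 in perigonadal and 490 ± 45.4 in subcutaneous pools (SD, n = 3 each), a log2 difference of -0.37 (limma adjusted p = 0.0371). Its call was lost in 9 of 14 alternatives, among them the fits without pool pair 1 (-0.37), 2 (-0.40) or 3 (-0.34). Igfbp6 averaged 675 ± 42.4 in perigonadal and 857 ± 41.3 in subcutaneous pools, a log2 difference of -0.34 that did not pass (limma adjusted p = 0.0604), though it did with no replicate block (0.0432) and without pool pair 3 (a difference of -0.40, limma adjusted p = 0.048). Igfbp7, a secreted protein that binds IGFs weakly, averaged 819 ± 45.8 in perigonadal and 612 ± 27.9 in subcutaneous pools and was higher by log2 0.42 (limma adjusted p = 0.0346). Its call was lost without pool pair 1 (0.45) or 2 (0.34), and, with no block, without array 2 of the perigonadal (0.37) or the subcutaneous pools (0.38).

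In the growth hormone list, with Ghr left out, 7 of 20 genes had a name, of which Igf1 and Ptpn2 were higher, 1 was lower and 4 did not pass (median log2 difference 0.16). Ptpn2, a phosphatase that dephosphorylates JAK and STAT proteins, stood at 43.6, 43.7 and 38.9 in perigonadal and 28.8, 34.0 and 31.5 in subcutaneous pools, a log2 difference of 0.41 (limma adjusted p = 0.0386). That call was lost in 8 of 14 alternatives, among them the fits without pool pair 1 (0.33) or 2 (0.44). The lone STAT5 gene with a name, Stat5b, had a log2 difference of -0.30 (limma adjusted p = 0.0877), and Socs3, an inhibitor of JAK signalling, had 0.22 (limma adjusted p = 0.182). These last 2 genes were picked after their values were seen.

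**Figure D3:**
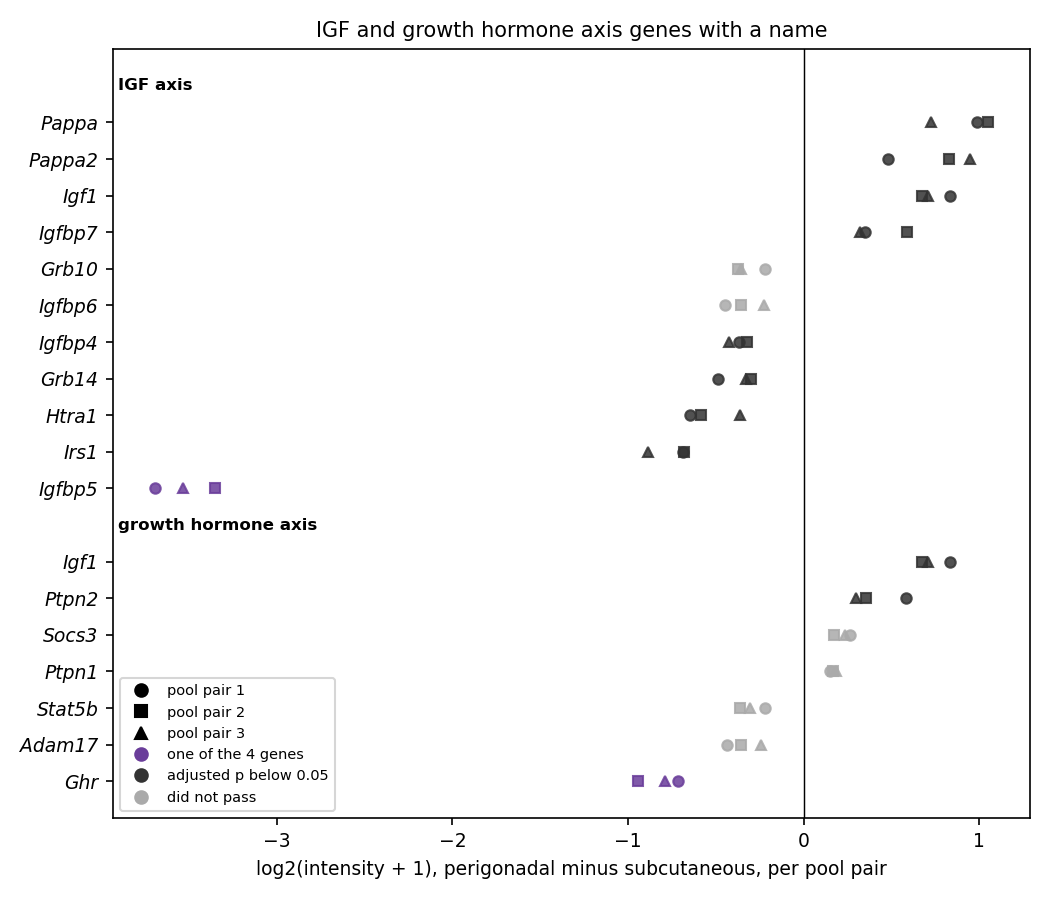
Log2 difference between the perigonadal and the subcutaneous pool of each number (horizontal axis, right of 0 higher in perigonadal) for IGF and growth hormone axis genes with a name, where each marker shape is a pool pair and colour marks the 4 genes, genes that passed the test and genes that did not. Igfbp5 (-3.69 to -3.35) lies far left of all others, Pappa, Pappa2 and Igf1 lie right of 0, and Ghr (-0.94 to -0.72) is the lowest of the growth hormone list.

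FGF ligands had few names. Beside Fgf1 and Fgf7, 2 of 22 other genes of the ligand list had a name. Fgf18, a ligand known from skeletal growth, stood at 60.8, 65.9 and 68.5 in perigonadal and 77.4, 88.9 and 94.2 in subcutaneous pools, which is the direction of Fgf7. Its log2 difference was -0.41 ± 0.086 (SE, limma adjusted p = 0.0259), and the call was lost in 8 of 14 alternatives, among them the fits without pool pair 1 (-0.44), 2 (-0.40) or 3 (-0.39). Fgf3 averaged 3.05 in perigonadal and 3.71 in subcutaneous pools, below the array medians, and did not pass (limma adjusted p = 0.202).

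Of 13 receptors and partners, 3 had a name, and 1 of them, Flrt2, was lower. Flrt2 encodes a membrane protein of a family that can bind FGF receptors and guides cells through Unc5 receptors. It stood at 180.3, 192 and 184 in perigonadal and 306, 293 and 255 in subcutaneous pools, a log2 difference of -0.61 ± 0.095 (SE, limma adjusted p = 0.0069), and without pool pair 1 it was -0.54 and did not pass. Fgfr1, a main FGF receptor of mesenchymal cells, stood at 107, 116 and 110 in perigonadal and 126, 155 and 146 in subcutaneous pools. The depots did not overlap, but the log2 difference of -0.35 did not pass (limma adjusted p = 0.0557). It passed with a pseudocount of 16, with dim probe sets left out, and, with no block, without array 1 of the subcutaneous pools (-0.44). Nrp1, a co-receptor of semaphorins and VEGF that can bind FGFs, had a log2 difference of -0.30 (limma adjusted p = 0.0837). All 3 genes were lower in each of 3 pool pairs. With 3 pairs, the authors' selection at an unadjusted p below 0.05 already requires 1 shared direction, so this adds no support.

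Of 17 genes that FGF-ERK signalling induces, among them its feedback inhibitors, 6 had a name, of which 3 were higher, 1 was lower and 2 did not pass (median log2 difference 0.41). Dusp6, a phosphatase that inactivates ERK and is induced by it, stood at 54.2, 53.1 and 54.7 in perigonadal and 33.9, 22.9 and 28.9 in subcutaneous pools, a log2 difference of 0.91 ± 0.12 (SE, limma adjusted p = 0.00276). The perigonadal values were close together and all above the subcutaneous ones.

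The Sprouty genes encode feedback inhibitors of receptor tyrosine kinases. Spry4 stood at 22.5, 22.6 and 20.7 in perigonadal and 15.3, 13.5 and 14.6 in subcutaneous pools, a log2 difference of 0.57 (limma adjusted p = 0.0081), which was 0.59 without pool pair 1 and 0.50 without pool pair 2 and then did not pass. Spry1 stood at 17.6, 16.2 and 20.8 in perigonadal and 12.3, 12.6 and 12.6 in subcutaneous pools, a log2 difference of 0.50 (limma adjusted p = 0.0206). Its call was lost without pool pair 1 (0.51), without array 1 of the subcutaneous pools in a fit with no block (0.49) and with a pseudocount of 16. Spred1 and Etv5, the other 2 with a name, had log2 differences of 0.31 and 0.28 and did not pass (limma adjusted p = 0.0691 and 0.108).

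Ccnd1, which encodes the cell cycle regulator cyclin D1 and is induced by many growth signals, went the other way. It stood at 22.5, 23.8 and 19.9 in perigonadal and 66.9, 63.0 and 62.7 in subcutaneous pools, with a wide gap between the depots. The log2 difference was -1.50 ± 0.092 (SE, limma adjusted p = 8.96e-05).

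Of 31 heparan sulfate genes 11 had a name, of which 5 were higher, 4 lower and 2 did not pass (median log2 difference 0.29). The core proteins and the enzymes were found on both sides. Gpc3, a glypican that carries heparan sulfate on the cell surface, stood at 353, 364 and 395 in perigonadal and 209, 212 and 230.1 in subcutaneous pools, a log2 difference of 0.77 ± 0.084 (SE, limma adjusted p = 0.00143). Sdc4, a syndecan of the cell surface, stood at 41.4, 44.3 and 39.8 in perigonadal and 24.7, 26.8 and 28.7 in subcutaneous pools, a log2 difference of 0.63 (limma adjusted p = 0.00625), and without pool pair 1 it was 0.58 and did not pass. These 2 core proteins were thus higher in every perigonadal pool. Gpc6, another glypican, was lower (log2 difference -0.52, limma adjusted p = 0.00851), a call lost without pool pair 1 or 2. Sdc3, another syndecan, was higher (0.41, limma adjusted p = 0.0245), but its depots overlapped. Its subcutaneous values (3.97 to 6.08) were below the medians of their arrays. The Sdc3 call was lost in 10 of 13 alternatives, among them the fit with no replicate block. Gpc6 and Sdc3 were picked after their values were seen.

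The largest changes of the list were those of 2 enzymes that were lower in perigonadal pools. Hpse encodes heparanase, which cuts heparan sulfate chains and releases growth factors bound to them. It stood at 13.6, 13.4 and 17.2 in perigonadal and 41.3, 46.1 and 40.4 in subcutaneous pools, a log2 difference of -1.48 ± 0.12 (SE, limma adjusted p = 0.000295). Glce, the epimerase that modifies the chain during its synthesis, stood at 18.2, 22.8 and 24.0 in perigonadal and 48.9, 60.6 and 52.4 in subcutaneous pools, a log2 difference of -1.28 ± 0.098 (SE, limma adjusted p = 0.000252). In both genes every perigonadal pool was below every subcutaneous pool. The calls of Igf1, Pappa, Irs1, Dusp6, Ccnd1, Gpc3, Hpse and Glce held in all 14 alternatives run for them.

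**Figure D4:**
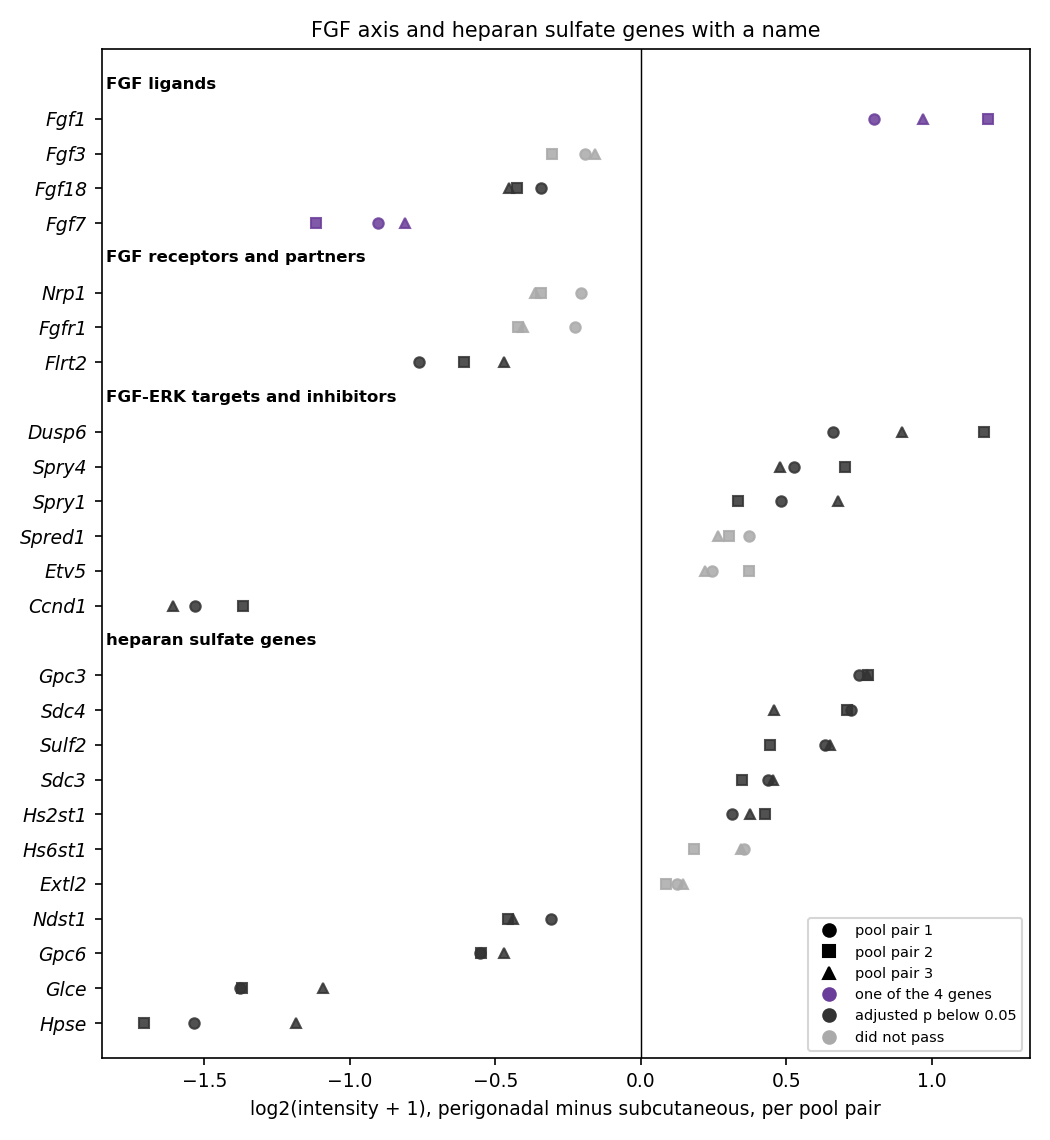
Log2 difference between the perigonadal and the subcutaneous pool of each number (horizontal axis, right of 0 higher in perigonadal) for each FGF axis and heparan sulfate gene with a name, where each marker shape is a pool pair and colour marks Fgf1 and Fgf7, genes that passed the test and genes that did not. Fgf1 (0.80 to 1.19) lies opposite to Fgf7 (-1.11 to -0.81), Dusp6 and the Sprouty genes lie right of 0, and Ccnd1, Glce and Hpse lie far left.

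Genes with the most similar profile over the 6 arrays were searched among the other 3180 named genes, by the Euclidean distance between log2 profiles centred on their own mean. These profiles mostly follow the depot difference, and the arrays are shared. Nearest to Igfbp5 were Pcdh20, a protocadherin (distance 0.22), the interleukin 18 receptor chain Il18r1 (0.51) and the transcription factor Osr2 (0.64). In perigonadal pools Pcdh20 (2.33 to 3.47) and Il18r1 (3.35 to 3.84) were below the array medians, so their distances depend on the pseudocount. Without one, the log2 difference of Pcdh20 was -3.87 instead of -3.48, and that of Igfbp5 was -3.55 instead of -3.53. Nearest to Ghr were Runx1t1, a transcriptional corepressor known to restrain fat cell formation (0.074), Tmeff2, a membrane protein with follistatin-like domains (0.091), and the carboxylesterase Ces2b (0.11). Ces2b was also below the array medians in perigonadal pools (4.13 to 4.83). Nearest to Fgf7 were the DNA repair polymerase Polb (0.15), the sodium-proton exchanger Slc9a9 (0.16) and the tetraspanin Tspan11 (0.18). Nearest to Fgf1 were thrombomodulin, Thbd, ornithine decarboxylase, Odc1, and the estrogen sulfotransferase Sult1e1, each at a distance of 0.15.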

How the data were processed

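Each probe set has a normalized intensity on each of 6 arrays in the deposited value table, on a linear scale (worked out from the values). Partek is named in the submitters' processing notes. Not given in the sources used here are its version, the background correction, the normalization and the genome build. Per the file headers, the authors' deposited comparison table holds log2 means and differences, the ratio, a signed fold score, a t score and the p-value of each probe set. Genes were named from it, through RefSeq accessions (3417 of 3694), symbols (166) or as in the file (111). Of 23531 probe sets 3541 had a name.

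The test on log2(intensity + 1) was that of limma 3.58.1 under R 4.3.3 (lmFit, eBayes, Benjamini-Hochberg over all probe sets, no filter). It was also run on simulated data with independent noise and no pool effect. That run does not show how the test behaves on these paired pools. Pool number was a block, as in the authors' paired test: pairing by number gave p-values within 10% of theirs for 3435 of 3541 probe sets, other pairings for at most 335. Deviations of same-numbered pools correlated at 0.17, 0.16 and 0.053 across probe sets. Array correlations were 0.992 to 0.995 within and 0.978 to 0.981 between depots. The number of arrays limits the precision. A gene with several named probe sets was read at its brightest. Named were the 4 genes, up to 4 genes of each list by size of difference, those past the threshold first, the 3 nearest profiles per gene, the sort marker genes with a name and the few marked as picked later. A gene that this rule selects is not reported here. The members and lists were chosen with earlier results of these data known. The alternatives were other pseudocounts, no block, a filter on dim probe sets, quantile normalization, pools or arrays left out, and the methods' t-test.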

Additional observations from a re-analysis of the deposited data

How the results depend on the processing

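The directions of Igfbp5, Ghr, Fgf1 and Fgf7 held in all 14 alternatives. As the depots did not overlap for these genes, only quantile normalization could have turned a direction. The log2 differences ranged from -3.65 to -3.18 for Igfbp5, -0.87 to -0.71 for Ghr, -1.04 to -0.84 for Fgf7 and 0.39 to 1.10 for Fgf1. With a pseudocount of 16, Igfbp5 was at -3.18 and Fgf1 at 0.39. This follows from the larger constant. Fitting with no replicate block cannot change a difference when all pairs are complete (Igfbp5 -3.53, Ghr -0.82, Fgf7 -0.94, Fgf1 0.99). The block moved no count by over 1.5 times. The 2238 probe sets called were 1189 without pool pair 1 (529 higher, 660 lower) and 1376 without pool pair 2 (660 higher, 716 lower). Without pair 3 they were 2476. The next counts include Igfbp5 in the IGF list and Ghr in the growth hormone list. Both were chosen by this contrast, so their own calls are no test result. Without them the main fit called 4 higher and 4 lower in the IGF list. In the growth hormone list it then called 2 higher and 1 lower. With them, the IGF list had 9 calls, and 5 without pool pair 1 or 2. The growth hormone list had 4 calls and 2 without pair 1, the FGF target list 4 and 2 without pair 1, and the heparan sulfate list 9, with 3 without pair 1, 5 without pair 2 and 6 without pair 3. The receptor list had 1 call, 0 without pair 1 in limma (3 genes at an unadjusted p below 0.05), 2 without array 1 of the subcutaneous pools or with dim probe sets left out, and 3 with a pseudocount of 16. Fewer pools were tested in the fits without a pair. The methods' t-test called 3541 probe sets at an unadjusted p below 0.05. All 8 named genes of the growth hormone list and all 3 of the receptor list were among them. Genes have a name here only if they passed the authors' test of this kind on these arrays. The list counts of that t-test were thus fixed in advance. After Benjamini-Hochberg the methods' t-test called 0 of 23531, so 0 in every list. Of the tests of single list genes under the alternatives, 429 kept their side of the threshold, 82 lost and 17 gained a call. None changed direction, which is largely fixed in advance where the depots do not overlap, as in 36 of the 38 genes. Fgf1 in subcutaneous pools, Fgf3 and the Pappa genes were dim, and the sizes of their differences depend strongly on the pseudocount.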
